A study of Rattus norvegicus with 8 samples.

Results

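The subject is a set of 5 potassium channel subunit genes of vascular smooth muscle, measured in 2 vessels of newborn rats, the ductus arteriosus (DA) and the aorta: Abcc9 and Kcnj8 of the ATP-sensitive (KATP) channel, Kcnma1 and Kcnmb1 of the large-conductance calcium-activated (BK) channel, and Kcna5, which encodes Kv1.5. They were taken by symbol from the platform annotation, and all 5 were found among 14506 genes tested. Abcc9 had 2 probe sets, of which the brighter was used, and the other 4 genes had 1 each. Affymetrix Rat Gene 1.0 ST arrays had been hybridised with RNA of 4 groups, namely Brown-Norway (BN) DA, BN aorta, Fischer344 (F344) DA and F344 aorta, with 2 arrays in each. All animals were full-term neonates sampled 1 h after birth, and the labels name no treatment or engineered allele in any group. RNA came from pooled whole tissue, and whether the 2 replicates of a group were different animals, litters or pools is not labelled. The p-values therefore cover the spread between these samples only, which may be technical. Values are log2 expression after RMA, a procedure that removes background, equalises the arrays and combines the probes of a set, and a difference of 1 on this scale is 2-fold.

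The DA carries blood past the lungs before birth and closes after it. Potassium channels hold the membrane of its smooth muscle at a negative potential, which keeps voltage-gated calcium channels shut and the vessel relaxed. KATP channels pair a pore formed by Kir6.1 (Kcnj8) with the sulfonylurea receptor SUR2 (Abcc9) and open when cellular energy falls, and human gain-of-function variants of either gene cause Cantú syndrome, in which a patent ductus is common. BK channels open with depolarisation and calcium, and their auxiliary beta1 subunit (Kcnmb1) raises the calcium sensitivity of the pore (Kcnma1). Kv1.5 is a voltage-gated channel, and inhibition of such channels by oxygen is part of ductal contraction as described in rabbit and human vessels.

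Promoter sequences are shown for the pairs that moved together, which were Abcc9 with Kcnj8 and Kcna5 with Kcnma1. Each holds 300 bases, 250 before the annotated transcript start and 50 from it on, read 5′ to 3′ from RefSeq (build GRCr8). The windows are chr4:177386299-177386598 (- strand) for Abcc9, chr4:177246499-177246798 (- strand) for Kcnj8, chr4:161043760-161044059 (- strand) for Kcna5 and chr15:351675-351974 (+ strand) for Kcnma1. Abcc9 and Kcnj8 are neighbours on chromosome 4 with 0 annotated genes starting between them. Capitals mark the matches of the motifs named below, other than E-boxes.
Abcc9: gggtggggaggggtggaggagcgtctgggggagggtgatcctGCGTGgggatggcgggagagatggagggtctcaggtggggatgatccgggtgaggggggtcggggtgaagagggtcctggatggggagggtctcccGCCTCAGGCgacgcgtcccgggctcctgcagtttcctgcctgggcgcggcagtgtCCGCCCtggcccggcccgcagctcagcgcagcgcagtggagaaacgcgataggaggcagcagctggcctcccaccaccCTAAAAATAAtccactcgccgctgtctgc
Kcnj8: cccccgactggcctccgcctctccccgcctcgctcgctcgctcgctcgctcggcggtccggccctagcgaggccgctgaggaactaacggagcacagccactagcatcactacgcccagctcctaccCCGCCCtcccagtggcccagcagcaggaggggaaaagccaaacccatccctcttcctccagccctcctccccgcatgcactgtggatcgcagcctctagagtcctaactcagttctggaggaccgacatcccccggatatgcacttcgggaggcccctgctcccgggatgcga
Kcna5: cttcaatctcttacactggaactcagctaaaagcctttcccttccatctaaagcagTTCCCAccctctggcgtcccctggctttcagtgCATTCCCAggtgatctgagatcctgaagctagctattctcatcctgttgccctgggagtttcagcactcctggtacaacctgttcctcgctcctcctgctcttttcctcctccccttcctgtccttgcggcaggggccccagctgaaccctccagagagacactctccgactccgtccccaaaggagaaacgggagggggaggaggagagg
Kcnma1: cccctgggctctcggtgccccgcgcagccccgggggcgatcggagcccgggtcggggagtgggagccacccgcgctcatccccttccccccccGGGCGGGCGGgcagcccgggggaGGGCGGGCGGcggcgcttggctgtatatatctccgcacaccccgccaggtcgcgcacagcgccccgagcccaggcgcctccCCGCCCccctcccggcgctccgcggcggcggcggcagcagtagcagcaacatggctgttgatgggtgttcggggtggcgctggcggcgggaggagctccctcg

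Motifs were searched on both strands and compared with 33469 promoter windows of the same length. The GC box GGGCGG was in the windows of Abcc9, Kcnj8 and Kcnma1 and in 33.1% of all windows, with 5 matches in Kcnma1, of which some overlap. A MEF2 site was in the Abcc9 window, from 21 to 30 bases after the start, and in 1.9% of all windows. The Abcc9 window also held the AP-2 core GCCNNNGGC (15.1% of all windows) and the hypoxia response core, searched as ACGTG or as GCGTG (41.6%). The core of the Notch-linked factor RBPJ, TGGGAA, was in the windows of Kcna5, with 2 matches, and Kcnmb1 (25.7% of all windows), and in Kcna5 one of them overlaps the MCAT motif CATTCC (14.2%). The E-box CANNTG was in the windows of Abcc9, Kcna5 and Kcnmb1 and in 72.1% of all windows. The CArG box, the motif of serum response factor, was in 0 of the 5 windows and in 1.6% of all, and the TATA box, searched as TATAAA, in 0 of the 5 and in 14.2%. The windows of Kcnma1, Abcc9 and Kcnj8 were 78.3%, 69% and 67% G and C, and those of Kcna5 and Kcnmb1 56.3% and 51.7%. A match describes these letters and not a bound site.

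On all 8 arrays the tissue carried smooth muscle transcripts. The mean of 9 smooth muscle markers lay between 11.42 and 11.62 in BN DA, 11.17 and 11.39 in BN aorta, 11.57 and 11.73 in F344 DA, and 11.22 and 11.28 in F344 aorta, and 0 of the 9 were below the median of all values (7.01) on any array. Median values per array lay between 6.96 and 7.05. The BN DA replicates differed most, with a standard deviation of the replicate difference of 0.349 over genes, against 0.196 to 0.258 in the other groups, and they stood apart for several of the genes described below. Lymphocyte markers averaged 7.34 on BN DA replicate 1 and 6.21 on replicate 2, against 6.07 to 6.18 on the other 6 arrays. Cardiomyocyte markers averaged 6.84 and 7.23 on BN DA replicates 1 and 2, against 6.55 to 6.86 elsewhere. In whole tissue, fewer cells of a type and less RNA per cell cannot be told apart.

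The KATP genes and Kcnmb1 were higher, and Kcnma1 and Kcna5 lower, in DA than in aorta in both strains. These were larger in F344 than in BN for 4 of the genes, but no difference between the strains' values passed the test given further on. In F344 all 5 genes passed the test (limma, Benjamini-Hochberg adjusted p under 0.05 over all genes), 3 higher in DA and 2 lower, where 14% of all genes passed, 8.87% higher and 5.12% lower. This split over all genes turned with the genes tested: 63.4% of the calls were higher in F344 DA over all genes, 21.5% without dim genes (those with a mean under the median of all values), 37% without the 1283 genes of chemosensory receptors, 87.8% after centring each array on the genes that are not dim and 6.66% after centring on smooth muscle markers. In BN only Kcnmb1 passed, higher in DA, where 1.81% of all genes passed and 0.986% were higher. Averaged over strains, all 5 passed again, 3 higher and 2 lower, against 16.6% of all genes, 10.1% higher and 6.47% lower. The DA arrays did not overlap the aorta arrays of the same strain for any of the 5 genes, which also held for 37.3% of all genes in BN and 67.4% in F344.

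Between the strains, all 5 genes passed in the DA and 0 passed in the aorta. In BN DA, Kcna5, Kcnma1 and Kcnmb1 were higher than in F344 DA and Abcc9 and Kcnj8 were lower, where 4.53% of all genes passed, 2.43% higher and 2.1% lower in BN. Of those calls 53.7% were higher in BN DA over all genes, 84.1% without dim genes, 79.9% without chemosensory receptor genes, 23.7% after centring on brighter genes and 89% after centring on smooth muscle markers. The arrays of the 2 strains did not overlap for any of the 5 genes in the DA, against 50.1% of all genes. In the aorta 0.159% of all genes passed, and the arrays did not overlap for 2 of the 5 genes, against 35.7% of all genes. Averaged over tissues, limma called 1 of the 5, Kcnmb1, higher in BN, against 2.65% of all genes called and 1.63% called higher. The other 4 had limma adjusted p-values from 0.0512 for Kcnj8 to 0.0855 for Kcnma1. Called were 3 of the 5 with an intensity trend, without dim genes, after cyclic loess or with the replicate block, and 4 with array weights. Over all genes these fits called 475, 393 (of 8506), 376, 966 and 468, against 384 of 14506 in the main fit. With each array left out the difference lay between -0.78 and -0.43 for Abcc9 and between -0.72 and -0.42 for Kcnj8. For Kcnma1 it lay between 0.32 and 0.55, and for Kcna5 between 0.36 and 0.75.

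**Figure D1:**
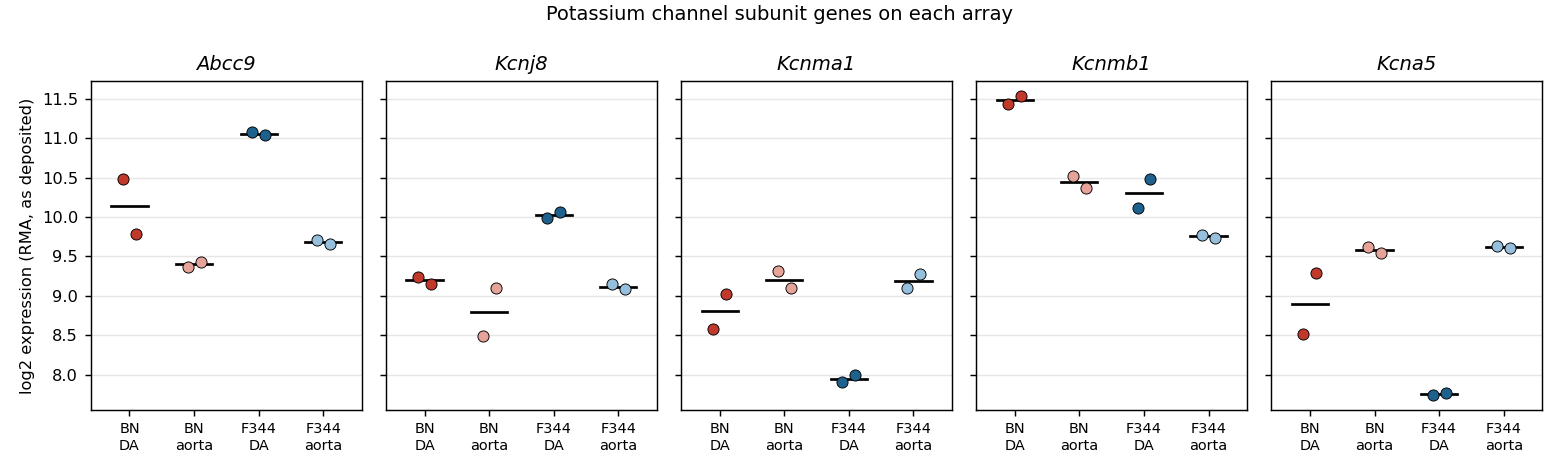
Log2 expression of the 5 genes on each array (points) with the mean of each group (bars), n = 2 arrays per group. In F344 DA, Kcna5 lay at 7.74 and 7.76 and Kcnma1 at 7.90 and 7.999, below all other arrays, and Abcc9 at 11.08 and 11.04 and Kcnj8 at 9.99 and 10.07, above all other arrays. Levels of different genes come from different probes and are not compared.

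The KATP genes rose in the DA of F344. Abcc9 was at 11.08 and 11.04 in F344 DA, against 9.71 and 9.66 in F344 aorta, and at 10.48 and 9.79 in BN DA, against 9.37 and 9.43 in BN aorta. The F344 DA arrays were the highest of all and the BN DA arrays lay between them and the aortas, with replicate 2 close to the aorta level. The log2 difference of DA minus aorta was 1.37 ± 0.20 (SE) in F344, which is 2.59-fold (limma adjusted p = 0.00288), and 0.73 ± 0.20 in BN, where Abcc9 did not pass (adjusted p = 0.111). In BN DA, Abcc9 was 1.9-fold lower than in F344 DA (-0.93 ± 0.20, limma adjusted p = 0.0343), and in BN aorta its difference from F344 aorta was -0.28 ± 0.20 (limma adjusted p = 0.998).

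Kcnj8, the pore gene, was at 9.99 and 10.07 in F344 DA, against 9.15 and 9.08 in F344 aorta, and at 9.24 and 9.16 in BN DA, against 8.49 and 9.09 in BN aorta. The F344 DA arrays were the highest of all, and BN DA was near the level of F344 aorta. Its log2 difference of DA minus aorta was 0.91 ± 0.18 in F344, 1.88-fold (limma adjusted p = 0.0109), and 0.41 ± 0.18 in BN, where it did not pass (adjusted p = 0.364). In BN DA it was 1.78-fold lower than in F344 DA (-0.83 ± 0.18, limma adjusted p = 0.0368). Between the aortas the difference was -0.32 ± 0.18 and the arrays overlapped (limma adjusted p = 0.998).

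The strain difference of Abcc9 depended on the probe set. The other Abcc9 probe set gave 10.61 and 10.26 in BN DA, against 9.19 and 9.38 in BN aorta, and 10.82 and 10.96 in F344 DA, against 9.59 and 9.41 in F344 aorta. With it, Abcc9 rose in the DA in both strains, by 1.15 ± 0.15 in BN (limma adjusted p = 0.00987) and by 1.39 ± 0.15 in F344 (limma adjusted p = 0.00113), and the strain difference in the DA was -0.45 ± 0.15 and did not pass (limma adjusted p = 0.119). Which transcripts each probe set covers is not given in the sources used here. Without BN DA replicate 2 the brighter probe set also passed in BN (1.08, limma adjusted p = 0.00305).

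The 2 BK genes moved in opposite directions between the tissues. The pore gene Kcnma1 was at 7.90 and 7.999 in F344 DA, against 9.10 and 9.28 in F344 aorta, and at 8.58 and 9.03 in BN DA, against 9.31 and 9.10 in BN aorta. F344 DA was lowest, and the BN DA arrays lay between it and the aortas. Kcnma1 fell by 1.24 ± 0.17 on the log2 scale in F344 DA, 2.36-fold (limma adjusted p = 0.00215). In BN the difference was -0.40 ± 0.17 and did not pass (limma adjusted p = 0.316). In BN DA it was 1.81-fold higher than in F344 DA (0.85 ± 0.17, limma adjusted p = 0.0276), and between the aortas the difference was 0.02 ± 0.17, with a 95% interval from -0.36 to 0.39.

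Kcnmb1, the beta1 subunit gene, was at 11.44 and 11.54 in BN DA, against 10.52 and 10.36 in BN aorta, and at 10.12 and 10.49 in F344 DA, against 9.77 and 9.74 in F344 aorta. BN DA was the highest group and F344 aorta the lowest, and BN aorta overlapped F344 DA. Its tissue difference was, in BN, 1.05 ± 0.15 or 2.07-fold (limma adjusted p = 0.0125), and, in F344, 0.55 ± 0.15 or 1.46-fold (limma adjusted p = 0.0377). It was 2.27-fold higher in BN DA than in F344 DA (1.18 ± 0.15, limma adjusted p = 0.00818). In BN aorta its difference from F344 aorta was 0.68 ± 0.15, with arrays that did not overlap, but it did not pass (limma adjusted p = 0.252). Averaged over tissues it was 1.91-fold higher in BN (0.93 ± 0.10, limma adjusted p = 0.00378).

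**Figure D2:**
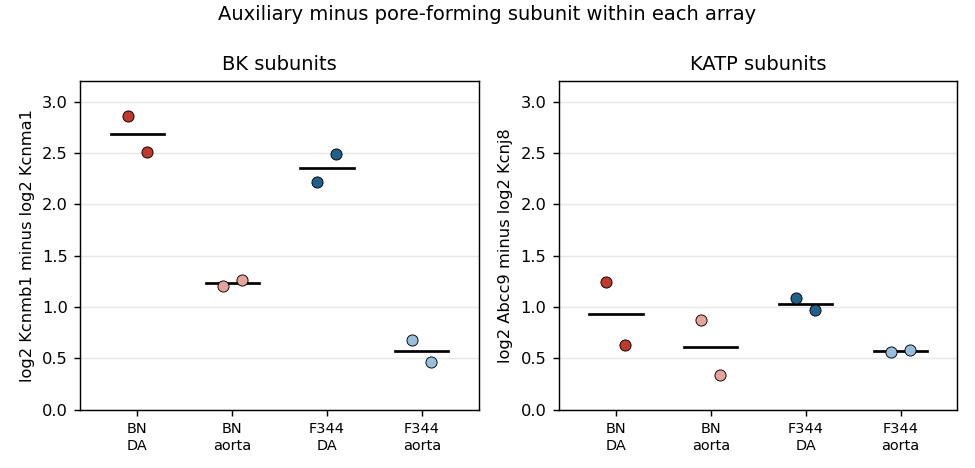
Within-array log2 difference of the auxiliary and the pore-forming subunit gene, Kcnmb1 minus Kcnma1 (BK) and Abcc9 minus Kcnj8 (KATP), for each array (points) with group means (bars), n = 2 per group. The BK value lay between 2.22 and 2.86 on the 4 DA arrays and between 0.46 and 1.26 on the 4 aorta arrays, while the KATP values of the tissues overlapped in BN.

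Taken within each array, Kcnmb1 relative to Kcnma1 was higher on every DA array than on any aorta array. Log2 Kcnmb1 minus log2 Kcnma1 was 2.86 and 2.51 in BN DA, against 1.21 and 1.26 in BN aorta, and 2.22 and 2.49 in F344 DA, against 0.67 and 0.46 in F344 aorta. No DA array overlapped an aorta array of either strain. The difference between tissues was 1.45 in BN and 1.79 in F344, and averaged over strains it was 1.62 (two-sided exact permutation of tissue labels within strains, p = 0.0556, the smallest that its 36 arrangements can give). Kcnmb1 was higher and Kcnma1 lower on every DA array than on the aorta arrays of the same strain. That alone fixes this p at its smallest value, so the test adds no support to those differences. The absolute value of the balance depends on the probes, so only its change between groups is read. For KATP, log2 Abcc9 minus log2 Kcnj8 was 1.24 and 0.63 in BN DA, against 0.87 and 0.34 in BN aorta, and 1.09 and 0.97 in F344 DA, against 0.56 and 0.58 in F344 aorta. The average difference between tissues was 0.39 (exact permutation p = 0.111), and the tissues overlapped in BN. With the other Abcc9 probe set it was 0.61 (exact permutation p = 0.0556). With each array left out it lay between 0.24 and 0.55, at 0.24 without BN DA replicate 1 and 0.26 without BN aorta replicate 2.

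Kcna5 had the largest tissue difference of the 5 genes in F344. It was at 7.74 and 7.76 in F344 DA, against 9.63 and 9.61 in F344 aorta, and at 8.52 and 9.28 in BN DA, against 9.62 and 9.54 in BN aorta. The 4 aorta arrays lay within 0.1 of each other, F344 DA was far below them, and the BN DA replicates were 0.77 apart. Kcna5 fell by 1.86 ± 0.21 on the log2 scale in F344 DA, 3.64-fold (limma adjusted p = 0.00118), and only 13 of the 14506 genes fell more. In BN the difference was -0.68 ± 0.21 and did not pass (limma adjusted p = 0.167), though without BN DA replicate 2 it was -1.06 and passed (limma adjusted p = 0.00336). In BN DA, Kcna5 was 2.21-fold higher than in F344 DA (1.15 ± 0.21, limma adjusted p = 0.0232). The aortas differed by -0.04 ± 0.21, with a 95% interval from -0.51 to 0.44.

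**Figure D3:**
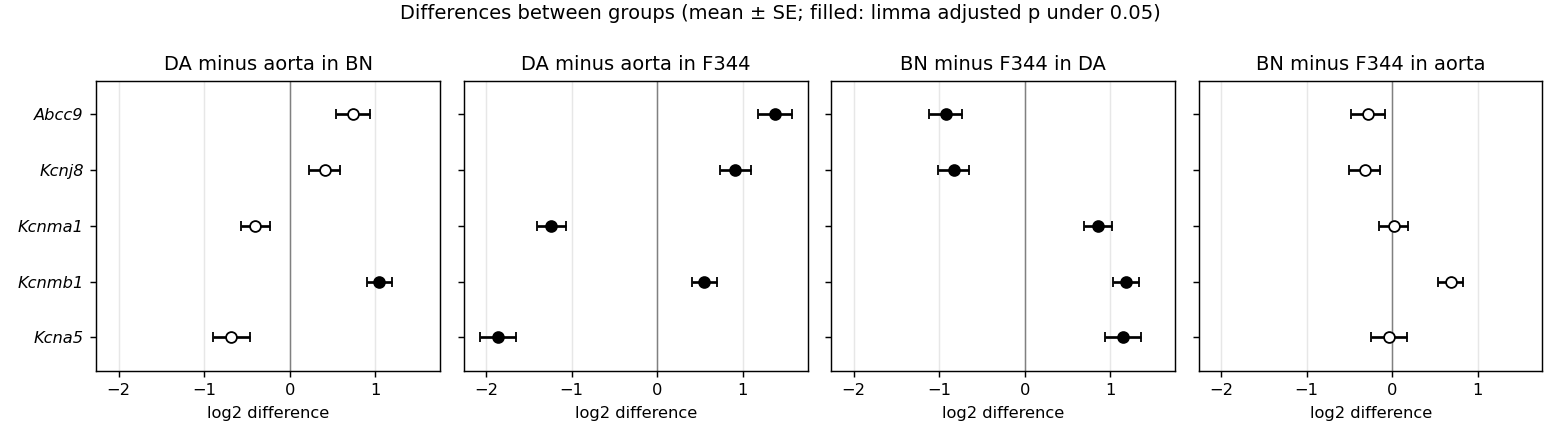
Log2 differences of the 5 genes in 4 comparisons, with standard errors from the model of all 8 arrays; filled points passed limma at an adjusted p under 0.05. All 5 passed for DA minus aorta in F344 and for BN minus F344 in DA, Kcnmb1 alone passed for DA minus aorta in BN, and 0 passed for BN minus F344 in aorta.

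The differences between the strains in the DA kept their sign without either F344 DA array, but most of their calls were lost. Without F344 DA replicate 1, 0 of the 5 passed and 24 of all genes did, against 657 with all arrays, while the differences of Abcc9 and Kcna5 were -0.90 and 1.14. Without replicate 2 Kcnmb1 alone of the 5 passed, and 13 of all genes did; without either F344 aorta array, whose removal leaves fewer degrees of freedom, Kcnmb1 and Kcna5 passed. Abcc9 also did not pass without either BN aorta array (limma adjusted p = 0.0575), nor Kcnj8 without BN DA replicate 2 (limma adjusted p = 0.0539). Without BN DA replicate 2 the difference of Abcc9 was -0.58 and that of Kcna5 0.76, and both still passed. A fit of the 4 DA arrays alone called 1 of the 5 and 118 of all genes. Kcnma1 did not pass after cyclic loess (limma adjusted p = 0.0571), Kcnj8 with array weights (limma adjusted p = 0.0578) and Abcc9 with the mean of its probe sets (limma adjusted p = 0.0531). In F344, Abcc9, Kcnma1 and Kcna5 passed for DA against aorta whichever array was left out. Kcnj8 did not pass there without any one F344 array (differences of 0.88 to 0.95, limma adjusted p = 0.0551 to 0.0863). Kcnmb1 did not pass without F344 DA replicate 2 (0.36, limma adjusted p = 0.267), without F344 aorta replicates 1 and 2 (limma adjusted p = 0.165 and 0.181) or without either BN aorta array (limma adjusted p = 0.0504), nor when chemosensory receptor genes were left out (limma adjusted p = 0.0504). In BN its call was lost without BN aorta replicates 1 and 2 (limma adjusted p = 0.0857 and 0.0658). No sign of these differences turned.

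The strains' tissue differences were compared through the interaction, which is the DA minus aorta difference in BN minus that in F344. None of the 5 passed in limma, where 0% of all genes passed, although 4 of the 5 had an unadjusted p under 0.05, as had 1403 of 14506 genes. Kcna5 had an interaction of 1.18 ± 0.30 (limma adjusted p = 0.284), Kcnma1 of 0.84 ± 0.24 (0.347), Kcnmb1 of 0.50 ± 0.21 (0.479), Abcc9 of -0.64 ± 0.28 (0.507) and Kcnj8 of -0.51 ± 0.26 (0.561). Without BN DA replicate 1, Kcna5 passed, at 1.57 (limma adjusted p = 0.00629), in a fit that called 50 genes. For Kcna5, Kcnma1, Abcc9 and Kcnj8 the sign was that of a smaller tissue difference in BN, and for Kcnmb1 that of a larger one.

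**Figure D4:**
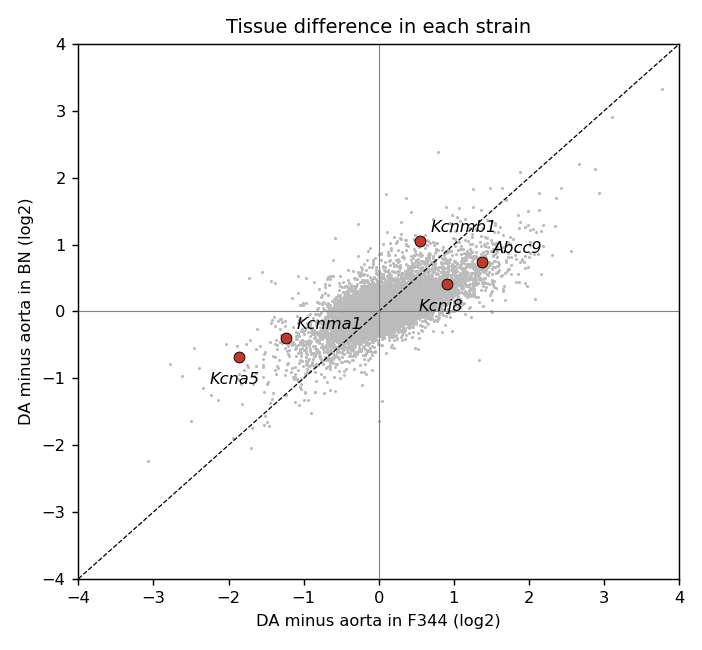
DA minus aorta (log2) in F344 on the horizontal axis and in BN on the vertical axis, for all 14506 genes (grey) and the 5 channel genes (red); the dashed line marks equal differences. Kcna5 and Kcnma1 lie at -1.86 and -1.24 in F344 and at -0.68 and -0.40 in BN, Abcc9 and Kcnj8 at 1.37 and 0.91 in F344 and at 0.73 and 0.41 in BN, and Kcnmb1 lies above the line, at 0.55 in F344 and 1.05 in BN.

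Across the 8 arrays the genes fell into a common pattern and an exception. Kcna5 and Kcnma1 had a Pearson r of 0.99, Abcc9 and Kcnj8 of 0.92, and the values between the pairs lay between -0.98 and -0.89, as a description over arrays that share 4 groups. Kcnmb1 had values between -0.16 and 0.10 with the other 4. Among 8501 genes brighter than the median, the one most like Kcnma1 was Kcna5 (r = 0.989), followed by the transcription factor gene Osr1 (0.989) and the amino acid transporter gene Slc7a3 (0.988). Most like Kcna5 were Osr1 (0.991), the zinc transporter gene Slc39a11 (0.991) and Corin (0.990), the protease gene that activates atrial natriuretic peptide. Corin was at 8.68 in F344 DA, against 10.72 in F344 aorta. Most like Abcc9 were Fhl2 (0.992), a LIM-domain protein gene, Abcg4 (0.984) and Mtarc2 (0.981). Most like Kcnj8 were Ogfrl1 (0.979), the olfactory receptor gene Or9s14b (0.964), whose probes may bind related copies, and Akap5 (0.963), whose product anchors protein kinase A. Over the 1283 chemosensory receptor genes the median of DA minus aorta was 0.79 in F344 and 0.39 in BN. Their median of BN minus F344 in the DA was -0.48. The signs are those of Kcnj8 and Abcc9, and what these genes share with them was not tested. Kcnmb1 was most like Zfp184 (0.980), Cd99l2 (0.966) and the cytokine gene Il17b (0.966), which was at 10.11 in BN DA and 9.25 in BN aorta, against 8.97 and 8.29 in the same tissues of F344. Zfp184 and Cd99l2 varied less: DA minus aorta was 0.07 and 0.14 in F344, where Kcnmb1 had 0.55. In BN it was 0.24 and 0.37, where Kcnmb1 had 1.05.

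Other potassium channel genes were described in the same way. Of 54 genes in 5 lists 48 were tested. In F344 DA 3 rose and 4 fell, where 14% of all genes passed, and in BN DA 1 rose and 3 fell, where 1.81% passed. Their medians were 0.15 and -0.01, against -0.04 and 0.00 over all genes. In F344 the median was -0.16 over brighter genes and 0.79 over chemosensory receptor genes. On F344 DA replicate 1, 6 of 7 other BK auxiliary, 7 of 10 other Kv1 and Kv beta and 11 of 18 other Kv genes were below the median of all values. In the remaining lists 3 of 6 and 2 of 7 were. The median over all genes is therefore not a like baseline. Kcnq1, the pore gene of the Kv7.1 channel, fell by 1.00 ± 0.14 in BN (limma adjusted p = 0.012) and by 1.12 ± 0.14 in F344 (limma adjusted p = 0.00159), and Kcnab1, which encodes a beta subunit of Kv1 channels, fell by 0.72 ± 0.15 in BN (limma adjusted p = 0.0442) and by 0.68 ± 0.15 in F344 (limma adjusted p = 0.0148). The potassium leak channel gene Kcnk6 also fell in both strains, with differences of -0.69 ± 0.14 in BN and -0.79 ± 0.14 in F344. Kcnq5, the pore gene of Kv7.5, rose in both, by 1.06 ± 0.13 in BN (limma adjusted p = 0.00599) and by 0.66 ± 0.13 in F344 (limma adjusted p = 0.00932), and was higher in BN DA than in F344 DA by 0.60 ± 0.13 (limma adjusted p = 0.0331). It was at 6.70 in BN aorta and 6.50 in F344 aorta, below the median of all values, and at 7.76 and 7.16 in the DA. Its rise exceeded the median over chemosensory receptor genes in BN (0.39) but not in F344 (0.79).

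Relatives of the same channels were taken list by list, with the shares of all genes as above. Of 6 other KATP and Kir2 subunit genes 0 rose or fell between tissues in either strain, and Abcc8, which encodes SUR1, was higher in BN DA than in F344 DA by 0.66 ± 0.14 (limma adjusted p = 0.0317). Between the aortas its difference was 0.40 ± 0.14 and did not pass (limma adjusted p = 0.722). Kcnj11, the pore gene of the pancreatic and cardiac KATP channel, was at 6.56 in BN DA and 6.72 in F344 DA, below the median of all values. Of 7 other BK auxiliary genes, Lrrc55, which encodes a gamma-type subunit, fell by 1.29 ± 0.22 in F344 DA (limma adjusted p = 0.00578) and Lrrc52, another of that type, rose by 0.63 ± 0.18 (limma adjusted p = 0.0416), and 0 changed in BN. Of 10 other Kv1 and Kv beta genes only Kcnab1 passed between tissues in either strain. Kcnc2, of the Kv3 family, rose in F344 by 0.78 ± 0.12 (limma adjusted p = 0.00405). It was at 5.88 in F344 DA and 5.10 in F344 aorta. In the same groups Lrrc52 was at 6.66 and 6.02 and Lrrc55 at 5.46 and 6.75, so all these means were below the median of all values. The rises of Kcnc2 and Lrrc52 did not exceed the median of 0.79 over chemosensory receptor genes in F344.

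**Figure D5:**
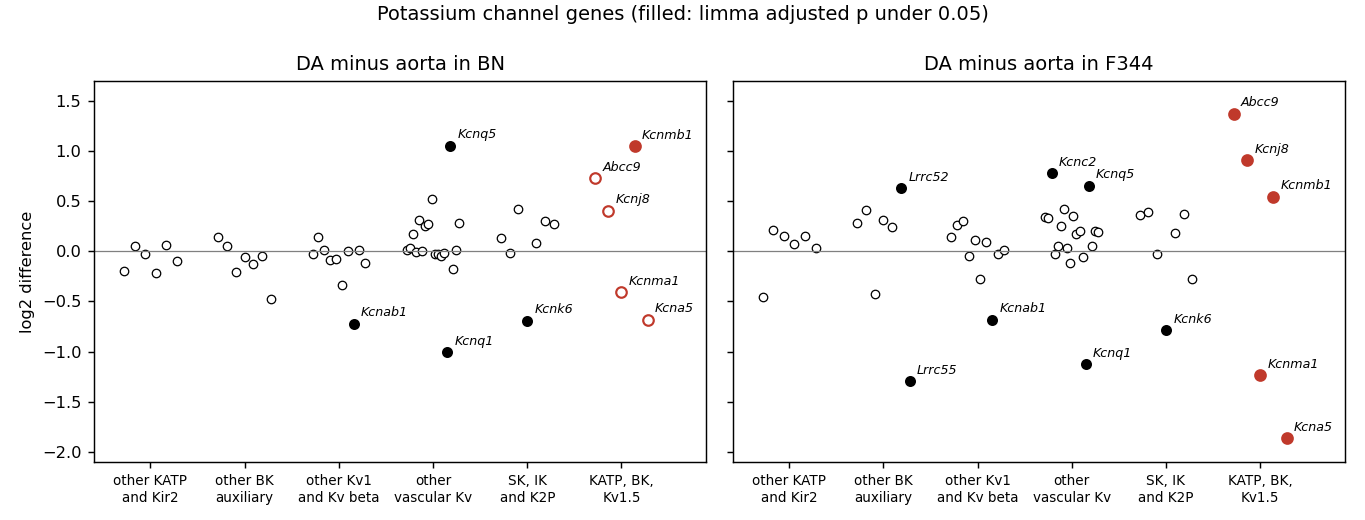
Log2 difference of DA minus aorta in BN and in F344 for 48 other potassium channel genes in 5 lists (black) and the 5 genes described here (red); filled points passed limma at an adjusted p under 0.05. In F344, 7 of the 48 passed, between -1.29 for Lrrc55 and 0.78 for Kcnc2, against -1.86 for Kcna5 and 1.37 for Abcc9. The group means of Lrrc55 and Kcnc2 were below the median of all values.

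Genes that supply calcium to BK channels, or whose products regulate these channels, were compared next. Of 21 tested genes of calcium entry and stores 1 rose and 2 fell in F344 DA, where 14% of all genes passed. In BN DA 1 rose and 0 fell, where 1.81% passed. Casq2, which encodes the calcium buffer calsequestrin of the sarcoplasmic reticulum, fell by 1.76 ± 0.26 in F344 DA (limma adjusted p = 0.00298) and was higher in BN DA than in F344 DA by 1.55 ± 0.26 (limma adjusted p = 0.0174). The cation channel gene Trpc6 fell by 0.88 ± 0.12 and the calcium channel beta subunit gene Cacnb2 rose by 0.56 ± 0.13 in F344. The phospholamban gene Pln rose by 0.95 ± 0.12 in BN DA (limma adjusted p = 0.00879) and was lower in BN aorta than in F344 aorta by -0.91 ± 0.12 (limma adjusted p = 0.0277). Cacna1c, the pore gene of the L-type calcium channel, did not pass between tissues (F344 difference -0.11 ± 0.12).

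Of 19 kinase, cyclase and scaffold genes 2 rose and 3 fell in F344 DA and 0 passed in BN, against 14% and 1.81% of all genes. Akap5 rose by 1.12 ± 0.14 in F344 DA (limma adjusted p = 0.00187) and was lower in BN DA than in F344 DA by -0.88 ± 0.14 (limma adjusted p = 0.0174). The natriuretic peptide receptor gene Npr1 fell by 0.92 ± 0.21 in F344 DA (limma adjusted p = 0.0198). Gucy1a1 and Gucy1b1, the subunit genes of the soluble guanylyl cyclase that responds to nitric oxide, were higher in BN DA than in F344 DA by 0.66 ± 0.14 and 0.61 ± 0.12 (limma adjusted p = 0.0322 and 0.0284). Between the aortas their differences were of similar size, 0.55 ± 0.14 and 0.55 ± 0.12, but did not pass (limma adjusted p = 0.377 and 0.257).

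Markers of other cell types moved with some of these comparisons. Over all genes 8.87% rose and 5.12% fell in F344 DA, a split that turned with the genes tested. In BN 1.81% passed between the tissues, and 4.53% passed between the DAs of the strains. Of 11 endothelial markers 0 rose and 6 fell in F344 DA, with means between 8.47 and 8.54 in F344 DA, against 8.99 and 9.10 in F344 aorta, and 0 passed in BN, with 8.82 and 9.04 in BN DA, against 8.88 and 8.94 in BN aorta. Of 10 fibroblast markers 1 rose and 4 fell in F344 DA and 0 rose and 2 fell in BN DA. Of 9 pericyte markers other than Abcc9 and Kcnj8, both of which pericytes also express, 2 rose and 2 fell in F344 DA and 1, Rgs5, rose in BN DA, and their means lay between 9.48 and 9.62 on all 8 arrays. Of 9 smooth muscle markers 2 rose in F344 DA, Des by 1.38 and Cnn1 by 0.48, and 0 passed in BN. Of 8 macrophage markers 2, Csf1r and C1qa, fell in F344 DA, with means of 7.40 and 7.29 in F344 DA, against 7.97 and 7.69 in F344 aorta, and 0 passed in BN, with 7.52 and 7.96 in BN DA, against 8.23 and 8.20 in BN aorta. Between the DAs of the strains, 1 of 11 endothelial markers (Sox17), 1 of 9 pericyte markers (Cox4i2) and 1 of 7 lymphocyte markers (Cd4) passed, higher in BN. The median difference was 0.45 over the endothelial, 0.42 over the macrophage and 0.54 over the lymphocyte list, against 0.00 over all genes. Over the pericyte list it was -0.21, so Cox4i2 does not stand for that list. Between the aortas of the strains the median was -0.26 over the endothelial, 0.41 over the macrophage and 0.01 over the lymphocyte list. The lymphocyte markers stood out on 1 array only. Their mean was 7.34 on BN DA replicate 1, against 6.21 on replicate 2 and 6.16 and 6.18 in F344 DA. The part of these cell types in the channel differences was not tested. When each array was centred on the mean of the smooth muscle markers, a choice made after the data were seen, the tissue differences in F344 were 0.98 for Abcc9, 0.52 for Kcnj8, 0.15 for Kcnmb1, -1.64 for Kcnma1 and -2.26 for Kcna5, and Kcnj8 and Kcnmb1 no longer passed (limma adjusted p = 0.109 and 0.548). That mean includes Des, with its rise of 1.38, while the median difference of the 9 markers in F344 was 0.25.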

How the data were processed

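Gene expression had been measured with 8 arrays of DA and aorta from BN and F344 neonates, and per the labels 150 ng of RNA from pooled tissues was labelled for each. The deposited values are taken as log2 from their range (1.07 to 14.2), and per the submitters' processing notes the authors used RMA; the sources used here do not give its version, its settings or a genome build. No measure of depth applies, and the number of arrays limits the precision. The table held 29215 probe sets, of which 15310 had 1 gene symbol, 323 had several and 13582 were not listed in the annotation, and 0 columns of other samples. The brightest probe set of each gene was kept (14506 genes). One limma model (version 3.58.1, R 4.3.3) with a mean for each of 4 groups gave all contrasts, with 4 residual and 5.25 prior degrees of freedom and Benjamini-Hochberg adjustment over all genes. Subunit balances were tested by exact permutation. The limma step was tested on simulated data with known changes. All 5 channel genes are described; of each list up to 4 called members with the largest differences are named, and for each channel gene the 3 genes with the highest Pearson r over arrays. The genes and lists were chosen with earlier results of these data known. Alternatives were other moderation, normalization, centring, probe set rules, filters, array weights, the replicate block, fits of the arrays compared, and each array left out. Protein sequences were not used here.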

Additional observations from a re-analysis of the deposited data

How the results depend on the processing

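Over 21 alternatives, 642 of 720 values of single channel genes kept their sign and their side of the threshold, 49 were no longer called, 25 became called and 4 turned sign. Those 4 were differences near 0 between the aortas. For Kcnma1 (0.02 with all arrays) they were -0.070 without F344 aorta replicate 1, -0.084 without BN aorta replicate 1, within a range of -0.084 to 0.12 with each array left out, and -0.0088 after centring on smooth muscle markers, and for Kcna5 (-0.04) 0.0033 without BN aorta replicate 2, within a range of -0.076 to 0.0033. With each array left out, DA minus aorta in F344 lay between 0.88 and 0.95 for Kcnj8 and between 0.36 and 0.73 for Kcnmb1. Of the 5 genes, the number called for DA against aorta was 5 in F344, where 2028 of all genes were called. There it was 4 without chemosensory receptor genes (982 of 13223 genes called) and 3 after centring on smooth muscle markers (6366 of 14506). In BN it was 1, 2 with the mean of probe sets or the other Abcc9 probe set, 0 in a fit of the 4 BN arrays or after centring on smooth muscle markers, and 0 to 3 with each array left out. For BN against F344 DA it was 5, 4 after cyclic loess, with array weights, with the mean of probe sets or with the other Abcc9 probe set, 3 after centring on brighter genes, 1 in a fit of the 4 DA arrays or after centring on smooth muscle markers, and 0 to 5 with each array left out. For the interaction it was 0, and 0 to 1 with each array left out. For the strains averaged over tissues it was 1, where 384 of all genes were called. There it was 2 after centring on brighter genes (220 of all genes) or without chemosensory receptor genes (353). It was 3 with an intensity trend (475), without dim genes (393) or after cyclic loess (376), and 4 with array weights (468). The BK balance was 1.53 to 1.71 with each array left out; its exact test cannot give a p under 0.0556, so it has no call to keep or lose. The cause of these changes was not tested, except that fits of fewer arrays have fewer degrees of freedom.

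The replicate numbers are not stated to mark a shared litter or batch. Deviations of arrays with the same number correlated across genes by 0.03 to 0.52 between groups. With the replicate number as a block, limma called 3 of the 5 genes for the strains averaged over tissues and the same number as before in the other comparisons. Over all genes the block called 2875 in F344 (2028 without it), 548 in BN (262), 1583 between the DAs (657) and 2 for the interaction (0). Apart from leaving out single arrays, the count over all genes ranged widely, in F344 from 766 without dim genes to 6366 after centring on smooth muscle markers. In BN it ranged from 16 in a fit of the 4 BN arrays to 548, and between the DAs from 118 in a fit of the 4 DA arrays to 1583. For the strains averaged over tissues it ranged from 88 after centring on smooth muscle markers to 966 with the block. Brighter genes had a median difference of -0.16 in F344, and chemosensory receptor genes of 0.79. The share of calls higher in the DA, over the settings named in the report, lay between 6.66% and 87.8% in F344, against 63.4% with all genes.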
